A study of Mus musculus with 4 samples.

Results

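The expression of 8 genes, grouped here as leukocyte genes, was followed in B16-F10 mouse melanoma cells. They were the integrin subunit Itgam, the Fc receptor adaptor Fcer1g, the growth factor receptor Csf1r and the lipopolysaccharide co-receptor Cd14. The others were the lysosomal glycoprotein Cd68, the lysozymes Lyz1 and Lyz2 and the actin-bundling protein Lcp1. Lyz1 is the lysozyme of intestinal Paneth cells and was kept beside Lyz2, the form of macrophages and granulocytes. The 8 genes were chosen by their detection in these same arrays, that is, by the scanner software's flag for a spot well above background. Their detection is therefore a description, with no test. Every probe whose RefSeq accession belongs to 1 of the 8 genes was taken, which gave 14 of the 56605 probes on the array, for 8 of 23462 named genes. Lcp1 had 3 probes, Itgam, Csf1r, Cd14 and Cd68 had 2 each, and Fcer1g, Lyz1 and Lyz2 had 1 each.

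B16-F10 is an established line derived from a spontaneous mouse melanoma and kept for its ability to colonise the lung. In all 4 cultures the cells grew in medium with fetal bovine serum, and total RNA was taken after 24 h. Control cells (n = 2) received no recombinant protein, and Cdh1 cells (n = 2) received 100 ng/mL recombinant Cdh1, whose symbol is that of mouse E-cadherin. Each of 2 independent sets paired a control culture with a Cdh1 culture. A single line stands for melanoma here, and the labels name neither the source of the recombinant protein nor the time between the sets.

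Leukocyte genes of this kind, Lyz1 apart, are switched on during myeloid differentiation, largely by the transcription factor PU.1 (Spi1). Itgam pairs with the beta2 chain Itgb2 to form complement receptor 3, Csf1r responds to Csf1 and Il34, and Fcer1g carries the signal of several Fc receptors to the kinase Syk. Cd14 hands lipopolysaccharide to Tlr4 and Ly96. Melanocytes are not leukocytes, but they share with phagocytes a large lysosome-related system, and Lcp1 is known to appear in many solid tumour lines.

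The stretches upstream of Lcp1 and Lyz1 are shown because these genes differed between the culture sets, that of Lyz2 because it is the neighbouring lysozyme gene, and that of Itgam because its spot was the brightest over local background. Each is the 250 bases before the transcription start in RefSeq (build GRCm38.p6), 5′ to 3′ on the gene's strand, and Lcp1 has 2 starts in that table. Capitals mark matches on either strand to 3 motifs: the PU-box core GAGGAA, a C/EBP-type motif TTGCNNAA and the TATA box TATAAA. Entries of the table matched 6 of the 8 genes, and Csf1r and Cd14 were not among them.
Lcp1, first start, chr14:75130873-75131122, plus strand: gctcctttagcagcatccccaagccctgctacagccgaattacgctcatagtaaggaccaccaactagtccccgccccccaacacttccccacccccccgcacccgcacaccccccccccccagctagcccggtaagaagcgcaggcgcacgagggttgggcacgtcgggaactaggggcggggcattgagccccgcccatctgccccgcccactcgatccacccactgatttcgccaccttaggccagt
Lcp1, second start, chr14:75136175-75136424, plus strand: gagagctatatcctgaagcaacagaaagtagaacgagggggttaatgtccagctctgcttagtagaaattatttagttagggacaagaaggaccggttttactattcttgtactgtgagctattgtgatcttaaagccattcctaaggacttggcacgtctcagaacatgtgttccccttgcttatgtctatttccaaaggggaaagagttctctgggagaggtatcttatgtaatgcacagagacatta
Lyz1, chr10:117292869-117293118, minus strand: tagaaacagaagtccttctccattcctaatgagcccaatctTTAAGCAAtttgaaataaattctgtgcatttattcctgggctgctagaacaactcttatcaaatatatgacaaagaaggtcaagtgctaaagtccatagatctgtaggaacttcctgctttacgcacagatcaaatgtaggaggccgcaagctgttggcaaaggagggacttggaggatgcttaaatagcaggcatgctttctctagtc
Lyz2, chr10:117282273-117282522, minus strand: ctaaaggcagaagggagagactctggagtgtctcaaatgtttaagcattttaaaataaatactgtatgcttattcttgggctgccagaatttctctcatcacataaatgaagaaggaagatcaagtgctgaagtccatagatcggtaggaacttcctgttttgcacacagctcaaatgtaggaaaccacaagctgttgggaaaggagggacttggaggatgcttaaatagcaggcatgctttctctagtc
Itgam, chr7:128062390-128062639, plus strand: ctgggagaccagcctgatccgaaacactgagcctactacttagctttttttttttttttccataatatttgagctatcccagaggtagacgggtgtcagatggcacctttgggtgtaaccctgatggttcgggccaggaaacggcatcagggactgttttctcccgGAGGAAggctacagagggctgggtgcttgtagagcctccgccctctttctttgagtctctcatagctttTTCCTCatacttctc
The Itgam stretch held 2 matches to the PU-box core, which began 84 and 15 bases before the start, the latter on the opposite strand. The Lyz1 stretch held 1 match to the C/EBP-type motif, on the opposite strand. Neither Lyz2 nor either start of Lcp1 had a match to any of the 3 motifs. No matches overlapped. Among 32851 stretches of this length in the table, 23.3% held the PU-box core, 9.56% the C/EBP-type motif and 12.4% the TATA box. Lyz1 and Lyz2, which are adjacent genes, were identical at 205 of 260 aligned positions (78.8%), whereas Lyz1 and Itgam were identical at 143 of 287 (49.8%). The 2 starts of Lcp1 differed in base composition, with 66% G or C at the first and 41.6% at the second.

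At least 1 probe of 7 of the 8 genes was well above background on all 4 arrays, against 59.7% of all named genes. Lyz2 was the exception. Every probe was well above background on all 4 arrays for 5 genes, namely Itgam, Fcer1g, Csf1r, Cd68 and Lyz1, against 53.6% of all named genes. Among genes with several probes, 17.6% of all named genes had some but not every probe well above background on all 4 arrays, as had Cd14 and Lcp1 of the 5 members with several probes. At the level of probes, 10 of 14 were well above background on all 4 arrays, against 55% of all. Lcp1 was 8.44-fold and Lyz1 1.95-fold lower in the second culture set than in the first, and the other 5 genes tested did not pass the threshold. Between Cdh1 and control, no member passed. Among defining genes of leukocytes and macrophages, Ptprc (CD45), Spi1, Adgre1 (F4/80) and Tyrobp were not well above background on any array. The same held for 7865 of 23462 named genes. Well above background on all 4 arrays were 6 of 15 pan-leukocyte genes, 3 of 17 macrophage markers and 5 of 10 myeloid transcription factors.

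Signals below are log2 of the processed intensity relative to the array's 75th percentile, so that 0 is that percentile. A signal belongs to its probe, and signals of different probes are not compared as amounts of RNA. Values of the 4 arrays are given in one order throughout, first control and Cdh1 of set 1, then control and Cdh1 of set 2. All 4 arrays were on 1 slide. The flag was carried by 59.3% to 61.3% of the 59305 non-control spots, and none of the latter was saturated. All 11 melanocyte genes looked up were well above background on all 4 arrays. Each array had 308 negative control spots, of which 1 to 3 carried the well-above-background flag, and the brightest of them reached between -4.53 and -3.52. A member signal in that range or lower is therefore close to what single negative spots can show. Among members, the dimmest spot that carried the flag had a signal of -5.32 and the brightest that did not had -5.96. Probes printed 10 times on each array gave the repeatability of a spot. Their median SD within an array was 0.0355 to 0.0392 at signals of 0 or more. For flagged probes it was 0.0648 to 0.116 from -3 to 0, over 3 to 5 probes per array, and 0.157 to 0.21 under -3. Every member probe was printed once.

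**Figure D1:**
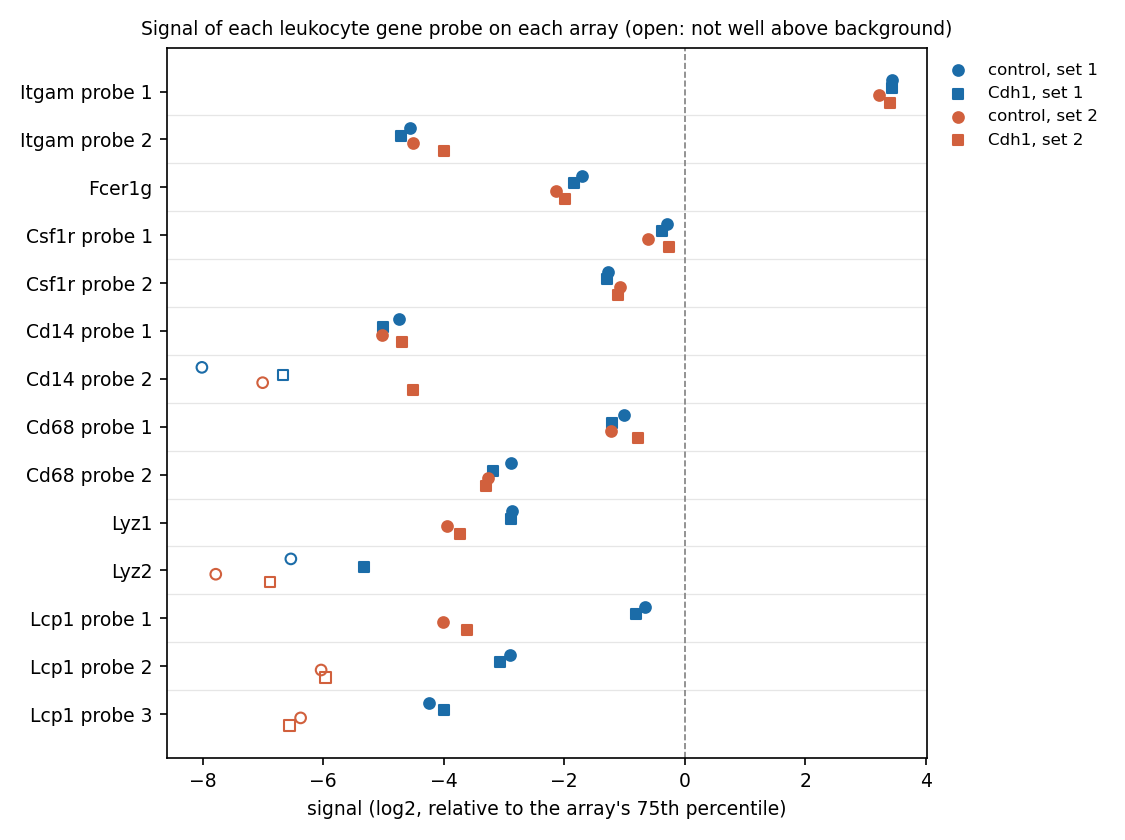
Signal of the 14 member probes (rows) on each of the 4 arrays, in log2 relative to the array's 75th percentile (dashed line); circles are control and squares Cdh1, blue is set 1 and orange set 2, and open symbols were not well above background. Probes of a gene are numbered from the highest mean signal. The 3 Lcp1 probes separate by colour, with set 1 from -4.25 to -0.66 and set 2 from -6.56 to -3.61, whereas the first Itgam probe stays between 3.22 and 3.44.

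Itgam, the alpha subunit of complement receptor 3, gave opposite pictures at its 2 probes. The probe for NM_001082960 had signals of 3.44 and 3.43 in set 1 and 3.22 and 3.40 in set 2, and its spot was 180 to 231 times as bright as its local background. The probe for NM_008401, another transcript of the gene, had -4.57, -4.71, -4.50 and -4.00, and its spot was 1.83 to 2.71 times as bright as its local background. Both carried the flag on every array, but 1 negative control exceeded the second probe on 3 of the arrays. The detection of Itgam thus rests on 1 of 2 probes. The sequences of the probes were not used here, so whether the brighter one also binds other transcripts was not tested.

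The partners of Itgam other than Icam2 were dim or lacked the flag on some or all arrays. Itgb2, the beta2 chain without which the integrin does not reach the cell surface, had signals of -4.98, -5.51, -5.56 and -4.27 at its only probe. Itgax and Itgad, alpha subunits of the same family, were not well above background at any probe on any array, nor was Fermt3, an activator of leukocyte integrins. Itgal, the alpha subunit of LFA-1, carried the flag on every array, with signals between -4.39 and -4.26. Icam1 was well above background on at most 2 arrays at either of its 2 probes. Of the 7 beta2 integrin genes and partners other than Itgam, 3 were well above background on all 4 arrays (42.9%). The third of them, Icam2, is a ligand of LFA-1, and it rose from a mean of -2.68 in set 1 to -0.18 in set 2, by 2.5 with an SE of 0.05 (limma adjusted p = 0.00772).

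Fcer1g, the gamma chain that signals for Fc receptors, had a single probe with signals of -1.71, -1.83, -2.13 and -1.99. The spot was 6.02 to 7.06 times as bright as its local background, and no negative control exceeded it on any array. Both arrays of set 1 were above both of set 2, by a mean of 0.29 with an SE of 0.09 (limma adjusted p = 0.106), which did not pass the threshold. Of the receptors it serves, Fcgr1, Fcgr3 and Fcer1a were not well above background on any array, and Fcgr4 was on 3. Fcgr2b, an inhibitory receptor that signals without this chain, was on none. Tyrobp, the other common adaptor of this type, read -6.53, -5.68, -6.40 and -7.41, with no flag. Of the 13 other Fc receptor and adaptor signalling genes, 3 were well above background on all 4 arrays, and these were the kinases Syk, Lyn and Fyn. The brighter Syk probe fell by 0.45 in set 2 with an SE of 0.08 (limma adjusted p = 0.045, and 0.0698 with treatment as a block), and its second probe differed by -0.14 with an SE of 0.15 (adjusted p = 0.547).

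Csf1r, the receptor for Csf1 and Il34, was measured by 2 probes of the same accession. Signals of the probe in array row 120 were -0.29, -0.38, -0.61 and -0.26, and those of the probe in row 97 were -1.27, -1.29, -1.07 and -1.11. Both probes were at least 10.5 times as bright as their local background on every array, with no negative control above them. The detection was thus the same at both, and the signals spanned 0.35 and 0.22 over the 4 arrays. Their differences between sets had opposite signs, at -0.10 with an SE of 0.14 and 0.18 with an SE of 0.05 (limma adjusted p = 0.64 and 0.101). Among the ligands, Csf1 was well above background at each of its 3 probes on all arrays. Its brightest probe rose from signals of -0.32 and -0.34 in set 1 to 0.16 and 0.10 in set 2, by 0.46 with an SE of 0.06 (limma adjusted p = 0.0247, and 0.0582 with treatment as a block). The other 2 Csf1 probes differed by 0.48 and 0.47 in the same direction without passing the threshold (adjusted p = 0.185 and 0.114). Il34 had 1 dim probe well above background on all 4 arrays, from -5.53 to -4.69, and 1 that was on none.

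Cd14, the membrane co-receptor for lipopolysaccharide, was dim and its 2 probes disagreed. The probe in array row 28 carried the flag on all 4 arrays with signals of -4.74, -5.01, -5.03 and -4.69, at 1.90 to 2.25 times its local background and with 1 negative control above it on each array. The probe in row 72 had -8.01, -6.66, -7.00 and -4.51, and carried the flag in Cdh1 set 2 alone. On the control set 1 array 250 of the 308 negative controls were brighter than this probe. The remaining genes of the pathway were better represented: 9 of 11 were well above background on all 4 arrays, Lbp and Ticam2 being the exceptions. Tlr4, the signalling receptor, had signals of 0.80 and 0.78 in set 1 and 0.48 and 0.44 in set 2, a fall of 0.33 with an SE of 0.05 (limma adjusted p = 0.0378, and 0.0784 with treatment as a block). Ly96, which presents the ligand to Tlr4, stayed between 2.76 and 2.96 at its brighter probe. Myd88 and Tlr2 also fell in set 2, by 0.48 and 1.23 (limma adjusted p = 0.0224 and 0.0337), calls that the block also removed (0.056 and 0.0582).

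Cd68, a glycoprotein of late endosomes and lysosomes that is abundant in macrophages, was well above background at both probes on all 4 arrays. The probe in array row 319 had signals of -1.01, -1.21, -1.22 and -0.78, and its spot was 10.4 to 16.5 times as bright as its local background. That in row 320 had -2.88, -3.19, -3.26 and -3.29, at 3.03 to 3.41 times. The highest array differed between the probes, being Cdh1 set 2 for the former and control set 1 for the latter. Set differences were 0.11 with an SE of 0.18 and -0.24 with an SE of 0.12 (limma adjusted p = 0.7 and 0.249). All 14 other lysosome genes were well above background on all 4 arrays, as were the melanocyte genes. The lysosome genes had a median set difference of -0.26, against -0.03 over all named genes tested, and 4 of the 14 fell in set 2 (Ctsb, Ctsd, Ctsl and Hexa), of which Ctsl alone was called with treatment as a block. Lamp1, the main lysosomal membrane protein, was 0.28 lower in set 2 at its brighter probe (adjusted p = 0.0545) and 0.30 lower at the other (adjusted p = 0.044, and 0.086 with the block).

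The lysozymes Lyz1 and Lyz2 are bacteriolytic enzymes, of which Lyz2 (lysozyme M) is the form of macrophages and granulocytes and Lyz1 (lysozyme P) that of intestinal Paneth cells. Lyz1 carried the flag on every array, with signals of -2.87 and -2.88 in set 1 and of -3.95 and -3.73 in set 2. The arrays of set 1 were both higher than those of set 2 and nearly equal to each other. In set 2 the brightest negative control reached -3.58 on the control array, where 1 exceeded Lyz1, and -4.53 on the Cdh1 array, where none did. Lyz2 had -6.53, -5.32, -7.78 and -6.88, and carried the flag in Cdh1 set 1 alone. It was 1.28 to 1.78 times as bright as its local background, and between 1 and 12 negative controls exceeded it on an array. No difference is given for this probe, which was not well above background on 3 arrays. The coding regions of these neighbouring genes are known to be closely similar, and each has 1 probe, so signal of one read by the probe of the other was not tested.

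Lcp1 (L-plastin, or lymphocyte cytosolic protein), an actin-bundling protein of blood cells, showed the widest difference between sets among the members. Its brightest probe, in array row 64, had signals of -0.66 and -0.81 in set 1 and of -4.00 and -3.61 in set 2. The processed intensity was 361.1 and 329.0 in set 1 and 38.9 and 50.3 in set 2. On the control array of set 2 the brightest negative control reached -3.58, and 1 exceeded this probe. On the Cdh1 array of set 2 it reached -4.53, and none exceeded the probe. The sets did not overlap, and the arrays of a set differed by less than 0.4. The probe in row 348 had -2.89, -3.06, -6.03 and -5.96, and that in row 376 had -4.25, -3.99, -6.37 and -6.56. Both carried the flag on the 2 arrays of set 1 and on neither of set 2, as did 0.671% of all probes. All 3 probes were thus lower in set 2, though 2 of them have no measured level there.

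Set 2 was compared with set 1 by limma over 32568 probes, with 1 control and 1 Cdh1 array on each side. Each side is thus 1 independent set, and the SEs, intervals and p-values rest on the spread between the arrays of a set. They do not measure how much independent sets vary. The brightest Lcp1 probe was lower in set 2 by 3.08 on the log2 scale, or 8.44-fold, with a difference of -3.08, an SE of 0.16 and a 95% interval from -3.53 to -2.63 (adjusted p = 0.00892). For the controls alone it was -3.35, and for the Cdh1 arrays alone -2.81. For the other probes, which were dim in set 2, the fall is given as a bound: set 1 was at least 7.15-fold higher at the probe in row 348 and at least 3.25-fold higher at that in row 376. The bound sets the mean of set 1 against, on each set 2 array, whichever is higher, what the probe itself read or the lowest signal of any probe well above background. The measured means of these 2 probes were -2.98 and -4.12 in set 1, and no test is given for them, since they were well above background only in the set where they were high. Lyz1 was lower in set 2 by 0.96, or 1.95-fold, with a difference of -0.96, an SE of 0.09 and a 95% interval from -1.23 to -0.70 (limma adjusted p = 0.0177). The controls alone gave -1.08 and the Cdh1 arrays alone -0.85.

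Of the 7 members tested, 2 were called lower in set 2 and 0 higher, where 10.5% of 14450 named genes were called lower and 7% higher by their brightest probe. Over all tested probes 7.81% were called lower and 6.23% higher (14% in either direction, and 35.6% at an unadjusted p under 0.05). With treatment as a block, 845 of the 2531 called genes were still called, Lcp1 and Lyz1 among them (limma adjusted p = 0.0421 and 0.0479). Lcp1 had the 16th largest fall among 32568 probes and Lyz1 the 609th. A fall of at least 4-fold in both treatments was seen at 40 of 31155 probes well above background on all 4 arrays (0.128%). In bulk RNA, fewer cells expressing a gene and less RNA per cell cannot be told apart. All calls between the sets, those of both genes included, rest on all 4 arrays and on the filter on dim probes. With any 1 array left out, 0 probes were called by limma, although 7811 to 9411 reached an unadjusted p under 0.05. The Lcp1 difference was then -3.27 to -2.88, with adjusted p-values of 0.0697 to 0.0839, and that of Lyz1 was -1.07 to -0.86, with 0.0765 to 0.104. Without the filter the adjusted p was 0.0743 for Lcp1 and 0.105 for Lyz1.

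**Figure D2:**
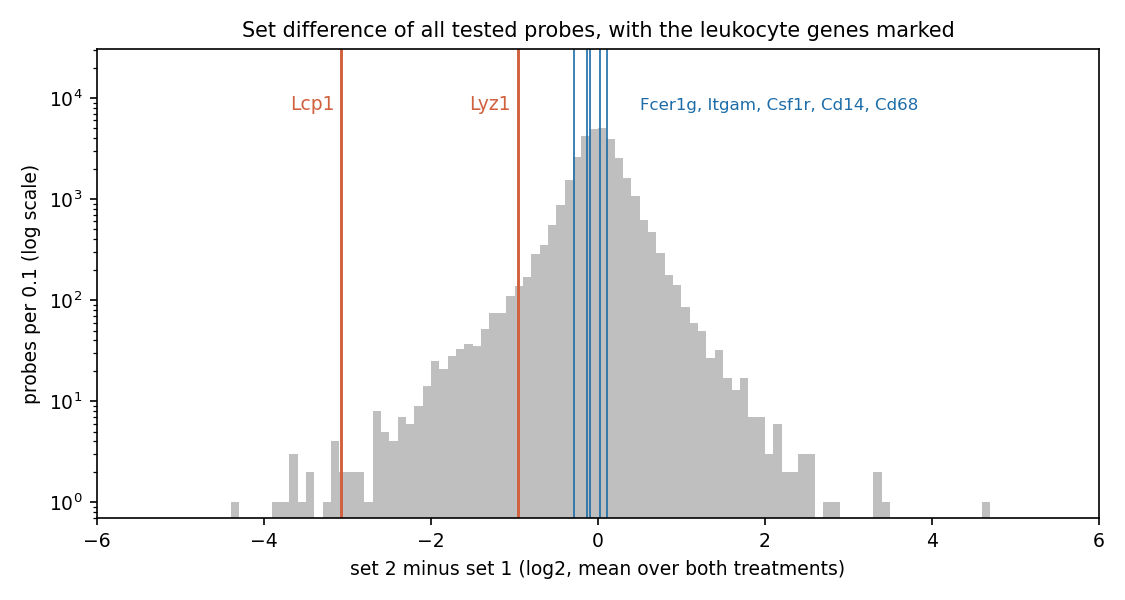
Number of probes (log scale) per 0.1 of the log2 difference set 2 minus set 1, over 32568 tested probes, with the brightest probe of each tested member marked. Lcp1 at -3.08 and Lyz1 at -0.96 (orange) lie left of the other 5 genes (blue), which fall between -0.29 and 0.11.

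Of the 4 tested relatives of Lcp1, only Fscn1 was called by limma, as higher in set 2, and with treatment as a block that call was lost. Pls3 (T-plastin), the plastin of solid tissues, had signals of 2.81, 2.87, 2.83 and 2.80 at its brighter probe, with a set difference of -0.02 ± 0.06 (SE, limma adjusted p = 0.781). Pls1, the plastin of intestinal brush borders, was not well above background on any array. Fscn1 (fascin), another actin bundler, rose in set 2 by 0.60 with an SE of 0.06 (adjusted p = 0.0187, and 0.0535 with the block). The genes whose profile over the 4 arrays was nearest to that of Lcp1, by Euclidean distance of mean-centred signals among 20709 probes, were Oasl1 (0.217), Gm14461 (0.224) and Rgs3 (0.26). Their set differences were -2.97, -3.08 and -3.19. For Lyz1 the nearest were Usp44, Zfp827 and Tmem179, at distances of 0.0302, 0.0311 and 0.0435. With 4 arrays such a profile holds little more than the difference between the sets.

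Of the 11 melanocyte genes, 6 fell in set 2 (Mitf, Tyr, Pmel, Slc45a2, Oca2 and Gpr143), where 10.5% of tested genes fell and 7% rose. With treatment as a block 4 of them were called, the calls of Mitf and Pmel being lost (limma adjusted p = 0.0798 and 0.0639). The other 5 did not pass the threshold, and Sox10 had a difference above 0, at 0.20 (adjusted p = 0.0876). The median set difference of the 11 was -0.39, and its part in the Lcp1 difference was not tested. Tyr, the rate-limiting enzyme of melanin synthesis, had signals of 3.82 and 3.66 in set 1 and 1.90 and 2.04 in set 2 at its brightest probe, a fall of 1.77 with an SE of 0.09 (limma adjusted p = 0.00923). The T cell kinase Lck also fell in set 2, from -1.42 and -1.44 to -3.09 and -2.80 at its brighter probe (adjusted p = 0.0136), while its other probe was near background and differed by -0.24 (adjusted p = 0.558).

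Among defining leukocyte genes, Ptprc, Spi1 and Adgre1 were at background in both sets. The 2 probes of Ptprc, carried by nearly all leukocytes, had signals of -8.26 to -7.83, and their spots were at most 1.63 times as bright as the local background. Spi1 had -8.13 to -7.70, and the 2 probes of Adgre1 -8.10 to -7.67. None of these probes carried the flag on any array. Of the macrophage markers 3 of 17 were well above background on all 4 arrays (C1qb, Marco and Mertk) and 12 had no flagged probe on any array. Of all 23462 named genes, 14003 were in the former class and 7865 in the latter. For pan-leukocyte genes the numbers were 6 and 8 of 15, for granulocyte genes 3 and 7 of 13, and for B cell genes 2 and 4 of 7. T and NK cell genes, at 9 of 16, were near the share of all named genes with at least 1 such probe. With every probe required they were 4 of 16, against 53.6% of all named genes. Of the 10 myeloid transcription factors 5 were detected, among them Runx1, whose brightest probe fell in set 2 by 0.66 (SE 0.05, limma adjusted p = 0.0147). The second Runx1 probe differed by -0.37 without passing the threshold (limma adjusted p = 0.0606), and the third was not well above background on any array. The median set differences of the tested macrophage, granulocyte, pan-leukocyte and B cell genes were -0.03, -0.05, -0.10 and -0.07. Whether other cells in the cultures contributed to the members' signals was not tested beyond these levels.

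**Figure D3:**
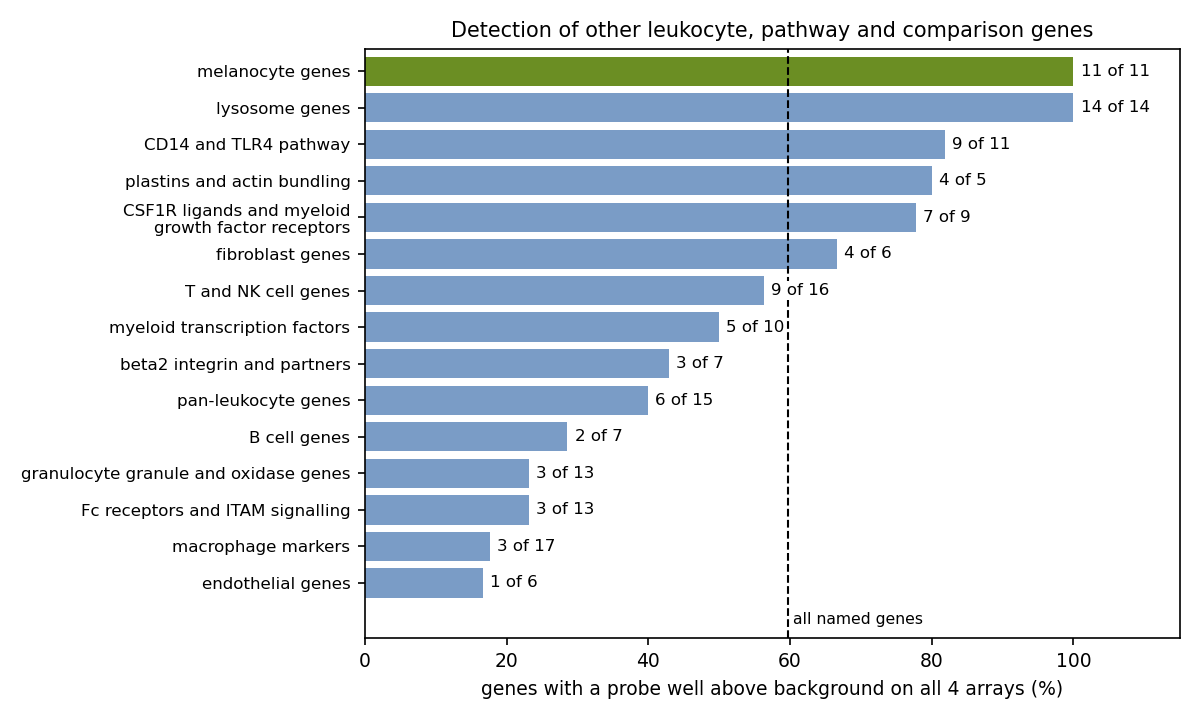
Percentage of genes with at least 1 probe well above background on all 4 arrays in each list, members left out; labels give the count, and the dashed line is the 59.7% of all named genes. Lysosome and melanocyte genes reach 100%, whereas macrophage markers (3 of 17), Fc receptor and granulocyte genes (3 of 13 each) and endothelial genes (1 of 6) lie lowest.

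The response to recombinant Cdh1 was compared next, the question the series was designed for. In this comparison 0 of 32568 probes were called by limma (0%), and 561 (1.72%) reached an unadjusted p under 0.05. No member was among the former. The difference for the first Itgam probe was 0.09 with a 95% interval from -0.27 to 0.44, from 3.33 ± 0.15 in control to 3.42 ± 0.03 with Cdh1 (SD, n = 2). The corresponding intervals were -0.52 to 0.54 for Fcer1g, -0.31 to 0.57 for the brighter Csf1r probe, -0.47 to 0.54 for the first Cd14 probe and -0.43 to 0.67 for the brighter Cd68 probe. With both Cd14 probes averaged, the second being mostly at background, the difference was 0.98 in place of 0.04 (limma adjusted p = 0.9999). For Lyz1 the interval was -1.29 to 1.49, and for Lcp1 it was -4.23 to 4.46, since the spread within a group there includes the difference between the sets. With the set as a replicate block the Lcp1 difference of 0.12 had an interval from -0.42 to 0.66 and that of Lyz1, 0.10, one from -0.18 to 0.38, and the adjusted p-values were 0.962 and 0.912. Changes of these sizes were thus not resolved by 2 cultures per group.

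At its brightest probe, Lcp1 differed between Cdh1 and control by -0.15 in set 1 and 0.39 in set 2, and Lyz1 by -0.01 and 0.21. The dimmer Lcp1 probes, measured in set 1 alone, gave -0.17 in row 348 and 0.26 in row 376. Of the probes that carried the flag on every array, the second of Itgam gave -0.15 and 0.51, the brighter Cd68 probe -0.20 and 0.44 and the first Cd14 probe -0.26 and 0.34. The brightest probes of the 7 tested members were lower with Cdh1 in set 1 and higher in set 2, as were 24% of all such probes, while 47.5% had opposite signs in either order. For Itgam, Csf1r and Lyz1 the set 1 difference was smaller than the median SD of repeated spots.

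**Figure D4:**
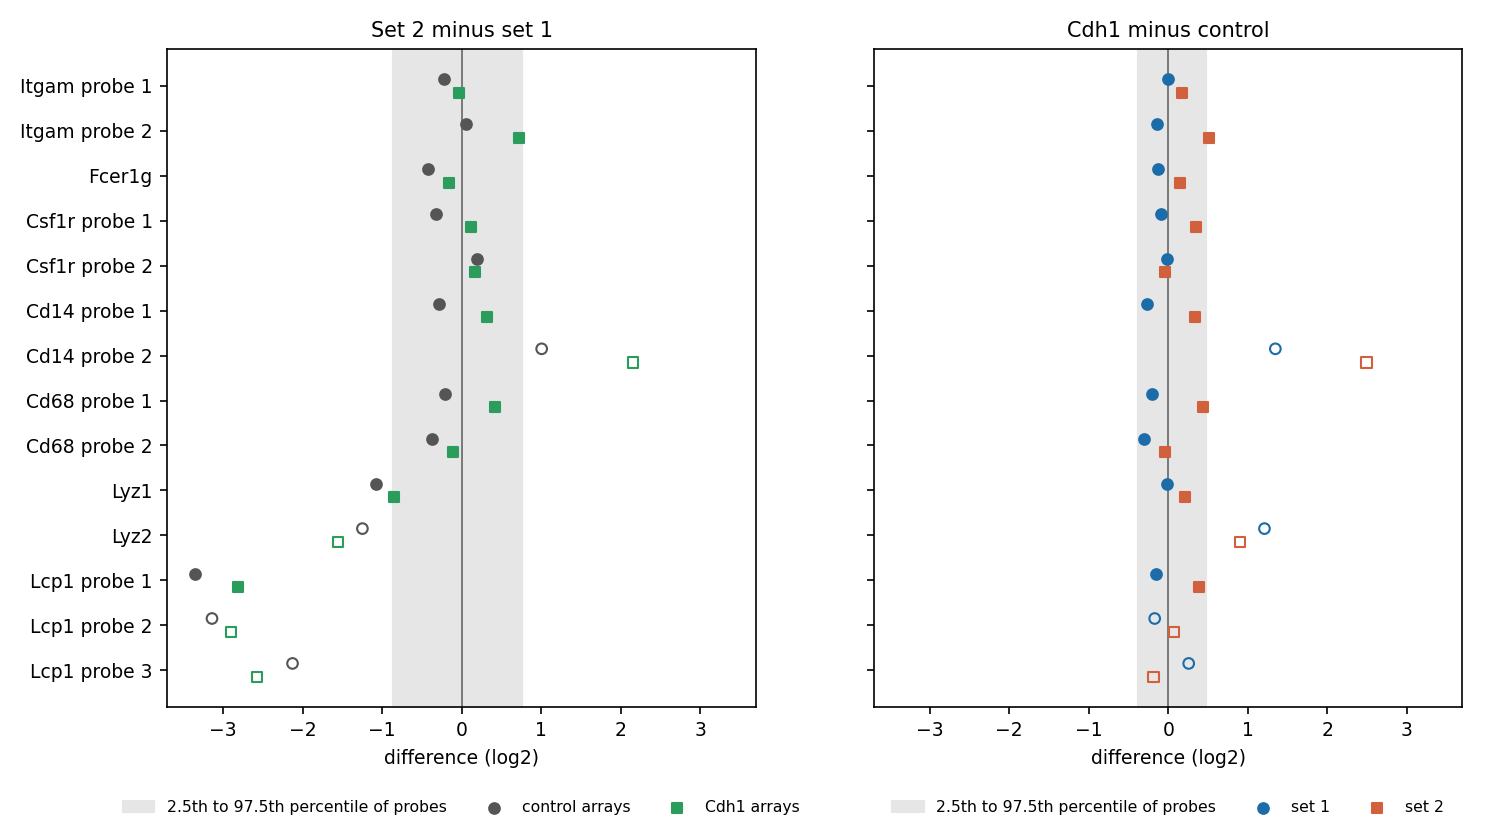
Log2 differences of the 14 member probes, set 2 minus set 1 (left, for control and Cdh1 arrays) and Cdh1 minus control (right, for each set); open symbols are probes not well above background on all 4 arrays, and the grey band holds the central 95% of 31155 probes, taken at its widest over the series drawn. Open symbols have no measured difference, except those of the dimmer Lcp1 probes for set 1 on the right, which were well above background on both arrays of that set. On the left the brightest Lcp1 probe lies at -3.35 and -2.81, outside the band; on the right every filled symbol lies within 0.51 of 0.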

How the data were processed

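Scanner images were quantified by the authors using Agilent Feature Extraction 12.0.3.1, per the submitters' processing notes. Per the file headers, each deposited file lists for a spot its processed intensity (linear, background-subtracted), medians of spot and local background, and flags. The authors' deposited table held the same processed intensity times 1 factor per array (0.873 to 0.93). It was used as an alternative.

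Spots marked as outliers were left out (115 to 143 per array). The deposited intensity was turned into log2 here, the 75th percentile of an array's non-control spots was subtracted, and spots of a probe were averaged. To count as well above background, a probe needed the flag at over 0.5 of its spots. The 32568 probes tested had it on both control or both Cdh1 arrays and had a value on every array. RefSeq accessions without version named 33767 probes through the assembly GRCm38.p6, and the array design is of build mm9, so no array coordinates are given. Where 1 value is given for a gene, it is that of its brightest probe.

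Differences were tested with limma 3.58.1 in R 4.3.3 (lmFit and eBayes, Benjamini-Hochberg, threshold 0.05), for Cdh1 against control and for set 2 against set 1, on the same 4 arrays, so the comparisons share their arrays. The fit was also run on simulated data whose noise was drawn separately for each array. Those data lack the deviations that arrays of a set share, so they do not test the calls between sets. The number of arrays limits the precision. The sample titles number the sets and the design text pairs a control with a Cdh1 culture in each, and the deviations of same-numbered arrays from their group means correlated at 0.744 across probes. The members, the gene lists and the rule for naming genes were chosen with earlier results of these data known. The rule named all members, their defining partners, up to 3 genes per list by set difference and, for members spanning at least 1 over the arrays, the 3 nearest profiles. Other genes are named only to complete a count of a list. Tables were made with Python 3.11.15, pandas 2.3.3 and Biopython 1.88, and figures with matplotlib 3.10.9. Alternatives were 4 other scalings or starting values, 2 other filters and a further one by set chosen after seeing the data, the edge rows of the array left out, another prior, blocks, a gene's probes averaged, and each array left out.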

Additional observations from a re-analysis of the deposited data

Results flagged for a closer look

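The Cdh1 difference had opposite signs in the 2 sets for each of the 7 members whose brightest probe was well above background on all 4 arrays. It was below 0 in set 1 and above 0 in set 2 for all 7, a pattern shown by 24% of all 31155 such probes (47.5% had opposite signs in either order). The difference between the sets was not tested, since 1 pair per set leaves no spread. The log2 values in set 1 and set 2 were -0.0046 and 0.18 for Itgam (0.177 before rounding), -0.122 and 0.149 for Fcer1g, -0.0928 and 0.346 for Csf1r, and -0.264 and 0.339 for Cd14. They were -0.2 and 0.438 for Cd68, -0.0111 and 0.214 for Lyz1, and -0.152 and 0.39 for Lcp1. In set 1 the values of Itgam, Csf1r and Lyz1 were below the median SD of probes printed 10 times on an array. At the signals of Csf1r that SD was 0.112 to 0.116, over 4 or 5 probes. The signs of these genes were thus not resolved. A difference between 2 spots varies more than a single spot does, so the other set 1 signs are not shown to be resolved either. The further probes did not all follow: that of Csf1r gave -0.02 and -0.04 and that of Cd68 -0.31 and -0.04.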

How the results depend on the processing

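For Cdh1 against control, limma called 0 probes under every alternative run, the set as a replicate block and each array left out (0 to 0) included, with 109 to 2336 probes at an unadjusted p under 0.05. The block changed no call of a member. The 4571 probes called between the sets became 8502 with normexp and quantile normalization, 10712 with a trend and robust prior, 1597 with treatment as a block, 0 without the filter on dim probes and 0 to 0 with 1 array left out. The set difference of Lcp1 was below 0 under every alternative (-3.27 to -1.97, the smallest with normexp, which adds an offset), as was that of Lyz1 (-1.07 to -0.54). Fcer1g passed the threshold with the trend and robust prior alone (adjusted p = 0.0437).

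Of 98 values of Cdh1 minus control, 17 had the opposite sign, and none passed the threshold. They were -0.03 for Fcer1g with quantile (-0.0276), median (-0.0342) and normexp (-0.0317) scaling, -0.0152 and -0.0103 for Cd14 with quantile and median scaling, and -0.0266 for Cd68 with the mean of its probes. That mean moved Cd14 from 0.0372 to 0.98, and its set difference from 0.0187 to 0.801. With 1 array left out the ranges were -0.0228 to 0.195 for Itgam, -0.199 to 0.226 for Fcer1g, -0.0331 to 0.286 for Csf1r, -0.123 to 0.197 for Cd14, -0.0945 to 0.332 for Cd68, -0.437 to 0.64 for Lyz1 and -1.56 to 1.79 for Lcp1. Of 105 set differences, 7 were reversed. With the mean of all probes that of Itgam was 0.131, of Csf1r 0.0424 and of Cd68 -0.0658, and with 1 array left out the ranges were -0.273 to 0.073 for Csf1r, -0.151 to 0.188 for Cd14 and -0.111 to 0.327 for Cd68. The cause was not tested.

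The 5 members with every probe well above background were 7 with the scanner's weaker flag (positive and significant) and 7 when 1 probe sufficed, and stayed 5 to 5 with 1 array left out. Asking for every probe of a gene lowered the counts from 7 to 5 for Csf1r ligands and growth factor receptors, 5 to 2 for myeloid transcription factors, 6 to 3 for pan-leukocyte genes, 9 to 4 for T and NK cell genes, 2 to 1 for B cell genes and 4 to 2 for fibroblast genes. Signal over background limits Cd14, Lyz2, the second Itgam probe and 2 of the Lcp1 probes. It also limits the set 2 signals of Lyz1 and of the brightest Lcp1 probe, more so on the control array, where 1 negative control exceeded each.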
